A study of Mus musculus with 3 samples.

Results

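WNT ligands, WNT receptors and the secreted and membrane proteins that tune them were read on 3 expression arrays of mouse cells. The genes were chosen by symbol: those whose name begins with Wnt, Fzd, Sfrp, Dkk or Rspo followed by a digit, the receptors Lgr4, Lgr5, Lgr6, Lrp5 and Lrp6, and Axin2, Lef1, Tcf7, Znrf3, Rnf43, Wif1 and Notum. A total of 53 genes met this rule, read by 63 probes, out of 20659 named genes and 39429 probes on the arrays. They were 19 WNT ligands, 12 receptors and coreceptors, 4 R-spondins, 3 R-spondin receptors, 2 ubiquitin ligases of receptor turnover, 10 secreted inhibitors, and 3 genes of the nuclear response and its feedback.

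The study asked how hepatocyte-like cells made from spleen fibroblasts compare with the fibroblasts they came from and with hepatocytes. iHep were hepatocyte-like cells: primary fibroblasts of mouse spleens remodelled with SiO2 received the lentivirus LV-3TF and were collected after 14 days of culture. PH, the positive control, were primary hepatocytes taken directly after isolation. MF were primary SiO2-remodelled spleen fibroblasts that received the control lentivirus LV-NC and were collected after the same 14 days, so iHep and MF share the SiO2 treatment, the spleen origin, a lentivirus and the culture time. The labels give female for all 3 groups. Strain, age and what LV-3TF carries are not given in the sources used here, and no label says that cells were sorted. RNA was prepared with a blood RNA kit and depleted of globin messages in all groups, and material of 5 samples was pooled per group and read on 1 array. No difference below therefore has a replicate check, no test between groups was possible, and "higher" and "lower" describe these 3 arrays.

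WNT proteins are lipid-modified signals that bind Frizzled receptors together with LRP5 or LRP6. In the canonical branch this stabilises beta-catenin, which acts with TCF and LEF factors in the nucleus and induces feedback genes such as Axin2, Lgr5, Rnf43 and Znrf3. R-spondins bind LGR receptors and keep the ubiquitin ligases RNF43 and ZNRF3 from removing Frizzled from the surface, while SFRP, WIF1, DKK and NOTUM proteins dampen the signal outside the cell. In the liver, WNT2, WNT9B and R-spondin 3 from endothelial cells around the central vein maintain a pericentral zone of hepatocytes that express glutamine synthetase (Glul), Cyp2e1 and Axin2.

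Levels are log2 signals relative to the 75th percentile of the array's signals, so that level 0 is that percentile, and they are compared between arrays for the same probe, never between genes. The percentile was 3751.5 in iHep, 2080.9 in PH and 544.3 in MF, so the MF array was the dimmest. Of all named genes, 79.6% were well above background in iHep, 84.2% in PH and 73.0% in MF, by the scanner software's call. The lowest level called above background was -7.32 in iHep, -6.89 in PH and -6.30 in MF. Where only 1 of 2 arrays read a gene above background, the fold is a bound, "at least", against the higher of that limit and the dim reading. Between arrays, log2 differences of single spots had an SD of 0.14 to 0.15 from spot noise, and different probes of 1 gene differed with an SD of 0.85 in iHep over MF, of 1.11 in PH over MF and of 1.09 in iHep over PH. iHep and PH were read in the same scan and MF in another, so scan and group cannot be told apart in comparisons with MF. Xist, the RNA that coats the inactive X chromosome of female cells, was at -8.28 in iHep and -6.92 in PH, neither well above background, and at -2.44 in MF. The labels give female for all 3 groups, which the Xist readings of iHep and PH do not bear out. The reason was not tested.

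The labelled cell types were checked against marker genes. Of 12 hepatocyte markers, 9 were above background in iHep, 12 in PH and 5 in MF. Albumin (Alb) was at -4.75 in iHep, 6.67 in PH and -5.20 in MF. Hnf4a, a master regulator of hepatocytes, was at 1.04 in iHep, 5.996 in PH and -5.62 in MF. Of 14 fibroblast markers, 10 were above background in iHep and 14 in both PH and MF, with a median level of -4.52 in iHep, 0.20 in PH and 5.29 in MF. Markers of other cells were present as well. In PH, 12 of 12 endothelial, 10 of 10 stellate, 11 of 11 macrophage, 14 of 14 T and B lymphocyte and 10 of 10 pancreatic acinar markers were above background. The acinar markers had a median level of -4.54 in iHep, 5.30 in PH and -6.23 in MF. That of the hepatocyte markers was -4.37 in iHep, 5.74 in PH and -6.43 in MF. Of 11 macrophage markers 6 were above background in iHep and 10 in MF, and of 7 mesothelial markers 4 in iHep and 7 in MF. In iHep, 6 of the endothelial, 5 of the stellate, 8 of the lymphocyte and 8 of the acinar markers were above background, and in MF 9, 5, 8 and 5. Beside these counts, 79.6% of all named genes were above background in iHep, 84.2% in PH and 73.0% in MF. A marker read above background therefore does not by itself show that its cell type was in a pool. In such bulk RNA fewer cells of a type and less RNA per cell cannot be told apart.

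**Figure D1:**
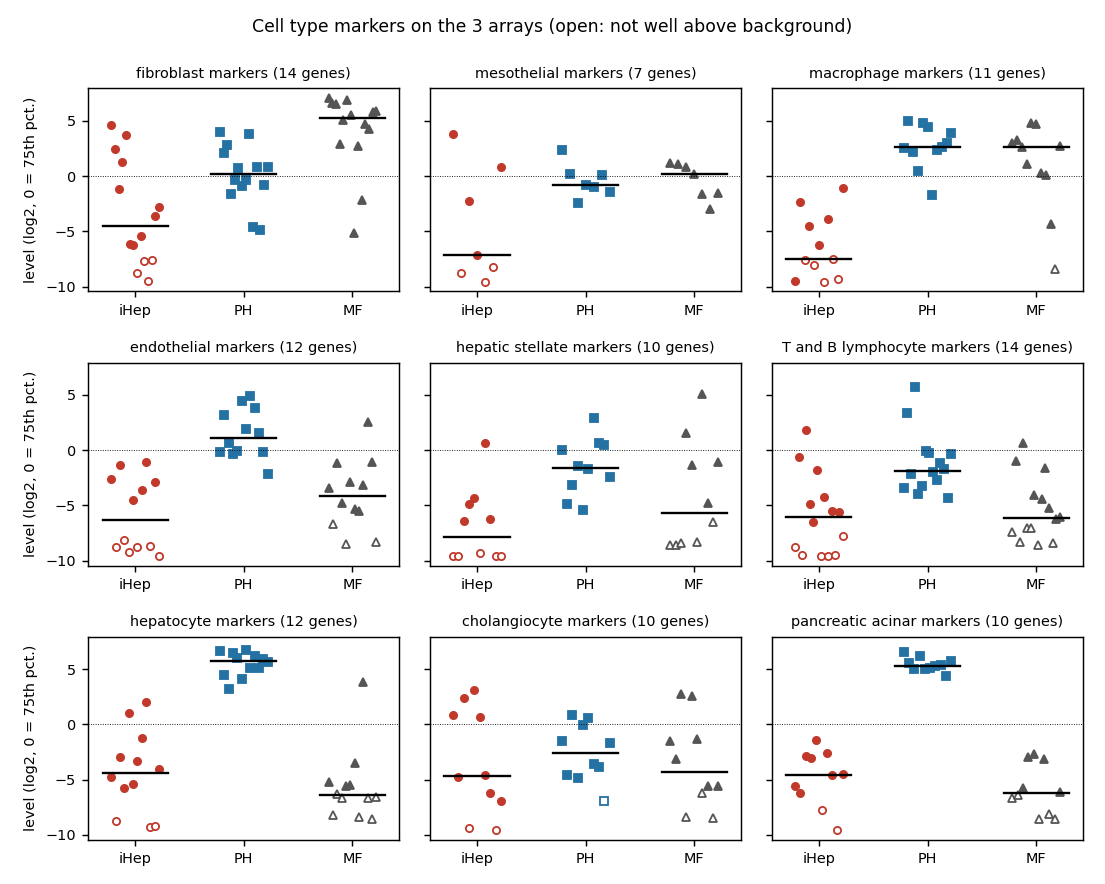
Levels (log2, 0 is the array's 75th percentile) of 9 lists of cell type markers in iHep, PH and MF, 1 point per gene and a bar at the list median; a filled point is a gene with a probe well above background. Endothelial markers had a median of -6.31 in iHep, 1.0997 in PH and -4.10 in MF, and macrophage markers of -7.51 in iHep, 2.60 in PH and 2.64 in MF.

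Of the 53 WNT genes, 35 (66.0%) were well above background in iHep, 49 (92.5%) in PH and 38 (71.7%) in MF. The shares of all named genes were 79.6%, 84.2% and 73.0%. A total of 29 were above background on all 3 arrays and 1, Wnt3, on none. Of the genes with a reading on both arrays, none was above background in iHep and not in PH, whereas 15 were above background in PH and not in iHep: Wnt2, Wnt2b, Wnt3a, Wnt8a, Fzd3, Fzd9, Fzd10, Rspo1, Lgr5, Dkk1, Dkk4, Sfrp1, Wif1, Axin2 and Lef1. This count was not made over all 20659 named genes, so whether 15 of 53 is an unusual share cannot be said. Of all named genes, more were above background in PH (17387) than in iHep (16447). Among the 29 genes above background on all arrays, the lowest level was in iHep for 17, in PH for 6 and in MF for 6, beside 31.6% in iHep, 40.1% in PH and 28.3% in MF over all 13998 genes counted the same way. The highest level was in iHep for 6 of the 29, in PH for 10 and in MF for 13, beside 31.4%, 35.2% and 33.4% of those genes.

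**Figure D2:**
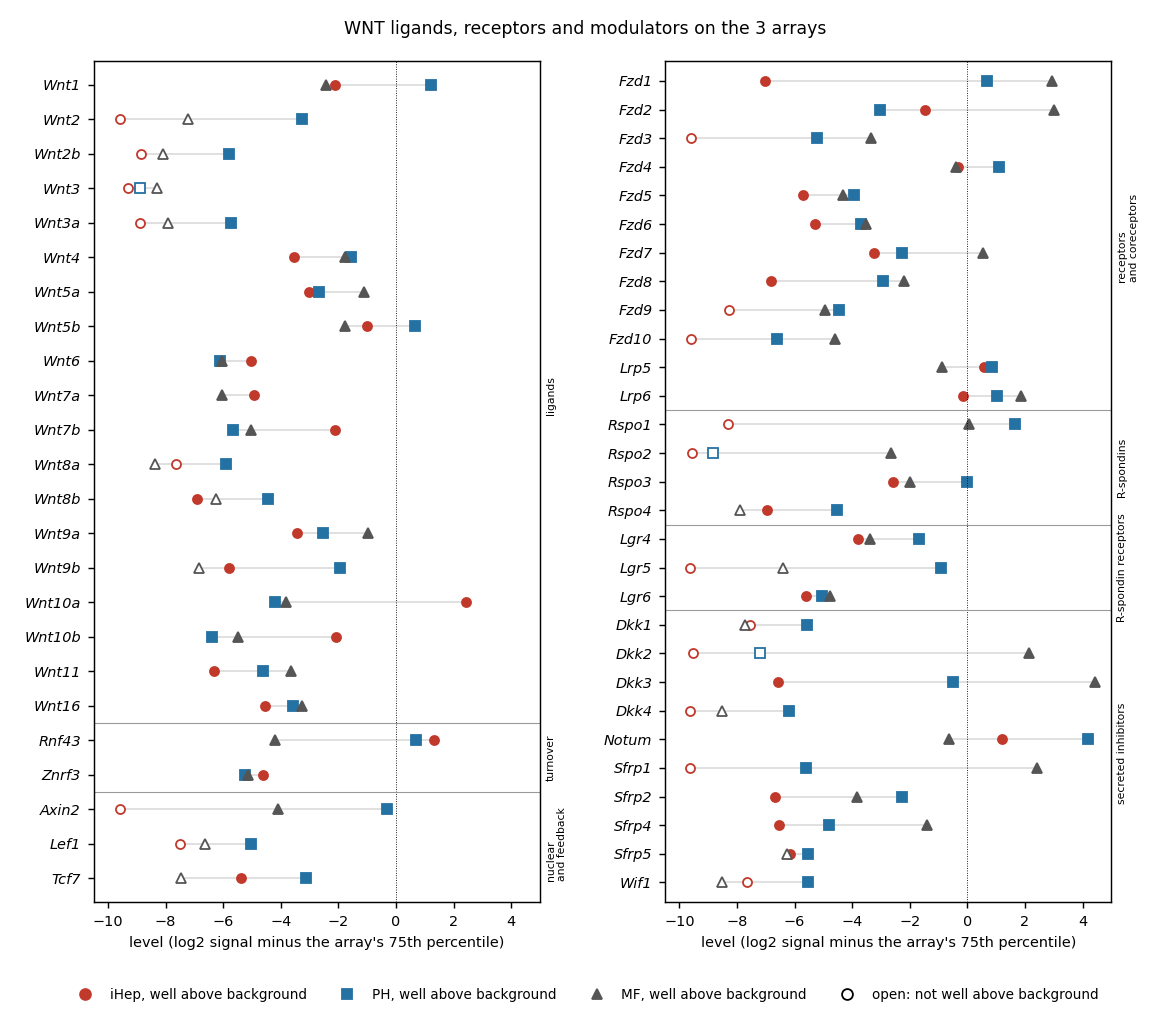
Level of each of the 53 WNT genes in iHep, PH and MF, grouped by role; the x axis is the log2 signal minus the array's 75th percentile, and open symbols were not well above background. Open symbols are most frequent in iHep, where 18 genes were not above background, against 3 in PH, where the spot of 1 further gene, Wnt7a, was left out, and 15 in MF.

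In iHep over MF, 43 of the WNT genes could be compared. At 2-fold, 10 were higher, beside 25.3% of all 17248 genes compared, and 23 were lower, beside 23.5% of all genes. The median log2 difference was -1.40 for the WNT genes and 0.09 for all genes. With readings below background held at their bounds, 8 were higher and 23 lower, beside 20.0% and 23.6% of all genes. By role, 6 of 14 ligands were higher and 5 lower (1 and 9 after normexp, a background correction that treats dim spots differently), while 10 of 12 receptors and 5 of 7 secreted inhibitors were lower and 1 of each was higher. After normexp, 11.7% of all genes were higher and 41.2% lower.

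In PH over MF, 51 could be compared, of which 24 were higher, beside 35.6% of all 17792 genes, and 12 were lower, beside 25.6%. The bounds gave 18 higher and 12 lower, beside 30.9% and 25.4%. The median was 0.51, against 0.12 for all genes. These counts depended on the background correction, with 11 higher and 24 lower after normexp, beside 17.9% and 33.3% of all genes in that setting. By role, 8 of 17 ligands were higher and 2 lower (3 and 9 after normexp), 2 of 12 receptors were higher and 5 lower, and 5 of 10 secreted inhibitors were higher and 4 lower (1 and 7 after normexp). In iHep over PH, 49 could be compared, of which 5 were higher, beside 24.1% of all 18007 genes, and 35 were lower, beside 37.0%. The bounds gave 5 higher and 34 lower, beside 23.2% and 36.0%, and the median was -2.14, against -0.30 for all genes. Here 10 of 17 ligands, 9 of 12 receptors, 8 of 9 secreted inhibitors and 3 of 3 R-spondins were lower. The comparisons share arrays, so they do not bear on one another independently.

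**Figure D3:**
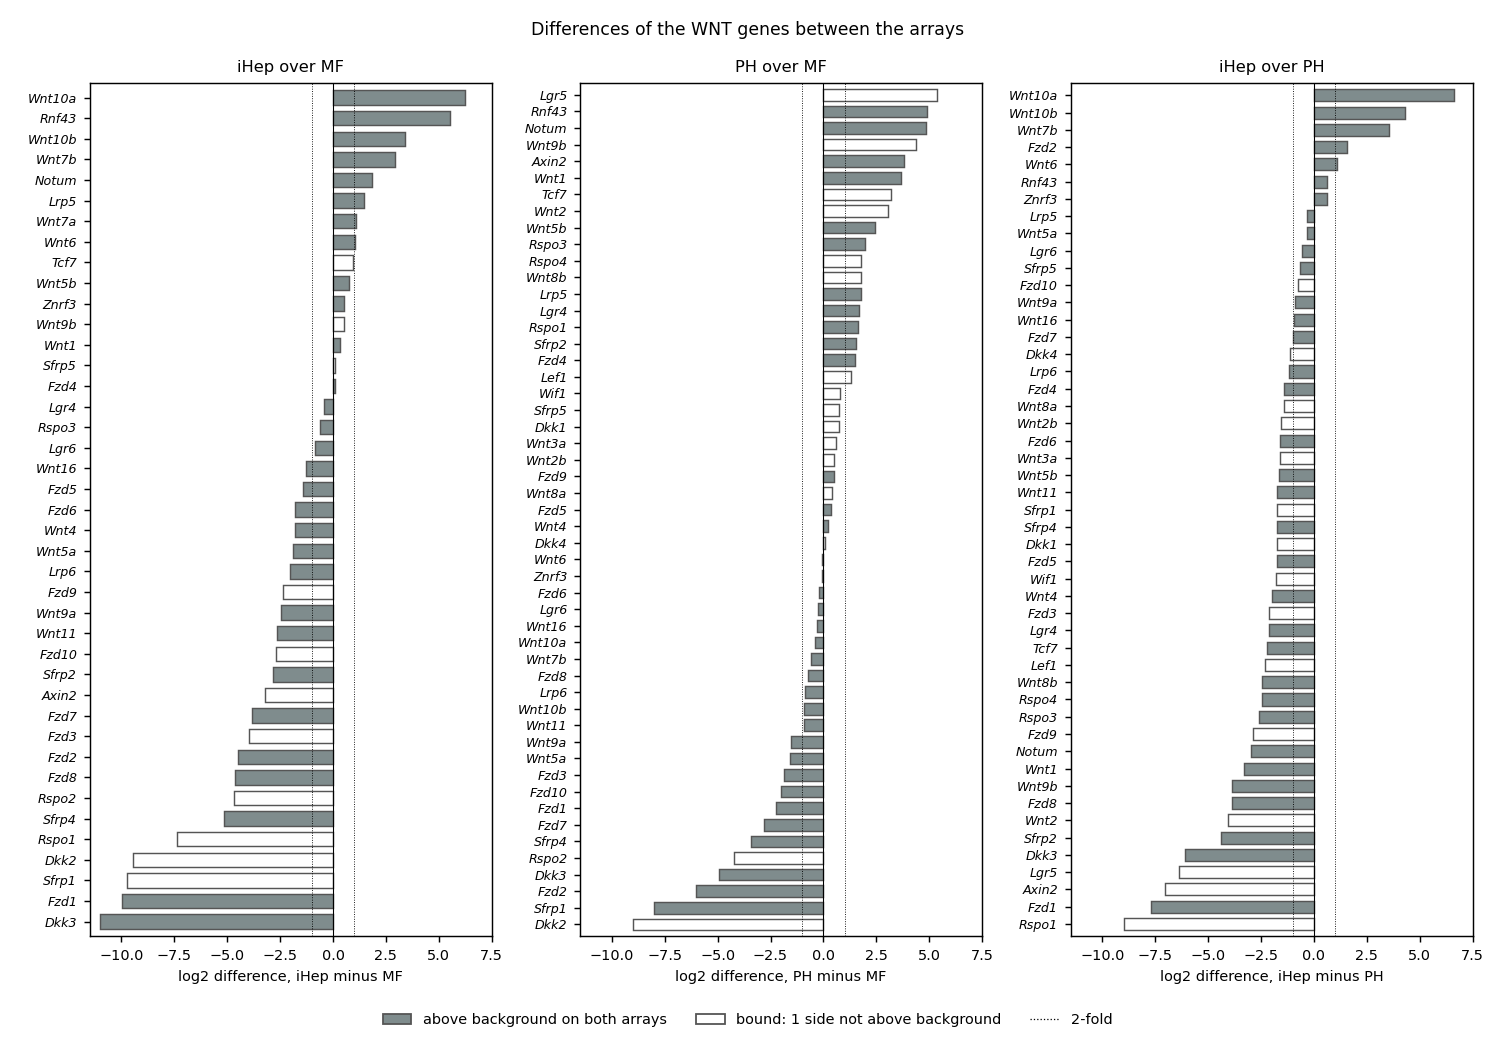
Log2 differences of the WNT genes (left panel iHep over MF, middle PH over MF, right iHep over PH), sorted within each panel; open bars are bounds and dotted lines mark 2-fold. Genes with no reading above background on either array, or with no usable bound, are not drawn. Wnt10a and Rnf43 lead the higher genes of iHep over MF at 6.24 and 5.51, and Dkk3 and Fzd1 are the lowest at -11.02 and -9.96.

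Among the ligands, Wnt10a, Wnt10b and Wnt7b stood higher in iHep than on the other arrays. Wnt10a, a ligand known from skin appendages and teeth, was at 2.42 in iHep, -4.21 in PH and -3.82 in MF. It was 75.8-fold higher in iHep than in MF and 99.5-fold higher than in PH, while the log2 difference of PH over MF was -0.39. Wnt10b, a ligand that restrains fat cell formation, was at -2.08 in iHep, -6.40 in PH and -5.48 in MF, which made it 10.6-fold higher in iHep than in MF and 19.9-fold higher than in PH. Wnt7b, a ligand of lung and kidney development, was at -2.10 in iHep, -5.65 in PH and -5.04 in MF, 7.67-fold higher in iHep than in MF and 11.7-fold higher than in PH. All 3 were above background on every array, and PH lay below MF for each. After normexp the iHep over MF differences of Wnt10b and Wnt7b were both 0.92, under 2-fold, which left Wnt10a as the 1 ligand at least 2-fold higher in iHep than in MF.

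Smaller differences in the same direction were read for Wnt6 and Wnt7a. Wnt6 was at -5.03 in iHep, -6.11 in PH and -6.04 in MF, 2.03-fold higher in iHep than in MF. Wnt7a was at -4.95 in iHep and -6.03 in MF, 2.12-fold higher in iHep, and its spot on PH was left out as an outlier. Both turned under normexp background correction, to -1.11 for Wnt6 and -1.06 for Wnt7a, so their direction in iHep over MF depends on how dim signals are treated. Wnt6 and Wnt10a are next to each other on chromosome 1, with no protein-coding gene between them in the RefSeq annotation.

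A second group of ligands was highest in PH. Wnt2, an endothelial ligand of the liver, was at -9.57 in iHep, -3.27 in PH and -7.21 in MF, above background in PH alone, at least 8.21-fold higher in PH than in MF and at least 16.7-fold lower in iHep than in PH. After normexp its PH over MF difference was 0.46, under 2-fold. Wnt9b, the other ligand of central vein endothelium, was at -5.79 in iHep, -1.94 in PH and -6.85 in MF, the last not above background. The PH reading was at least 20.6 times that of MF, and Wnt9b was 14.4-fold lower in iHep than in PH, and its direction in iHep over MF turned to -1.60 under normexp. Both were highest in PH, as were most of the 12 endothelial markers. Of these, 10 were at least 2-fold higher in PH than in MF, while Thbd was highest in MF. The summed level of the 12 markers was 0.39 in iHep, 6.44 in PH and 2.83 in MF. Their part in the Wnt2 and Wnt9b readings was not tested. Of the 12 endothelial markers, 6 were above background in iHep, 12 in PH and 9 in MF. Cdh5, 1 of the 12, was at -8.75 in iHep, 3.19 in PH and -6.67 in MF, above background in PH alone, which most of the 12 were not.

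Wnt2b, Wnt3a and Wnt8a were read above background in PH alone. Wnt2b, a paralogue of Wnt2, was at -8.87 in iHep, -5.79 in PH and -8.10 in MF. Wnt3a, a ligand of early body axis growth, was at -8.88 in iHep, -5.72 in PH and -7.93 in MF, and Wnt8a, also a ligand of the early embryo, was at -7.64 in iHep, -5.90 in PH and -8.35 in MF. The PH readings lay close to the lowest level called above background on that array (-6.89), their bounds over MF were at least 1.43-fold, 1.5-fold and 1.32-fold, and all 3 turned in PH over MF under normexp. Wnt8b, a ligand of the developing forebrain, was at -6.91 in iHep, -4.46 in PH and -6.24 in MF, where it was not above background, and it turned to -0.64 in PH over MF under normexp. Wnt3 was below background on all arrays, at -9.30 in iHep, -8.89 in PH and -8.31 in MF.

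Wnt5b, a mostly non-canonical ligand, was at -0.999 in iHep, 0.65 in PH and -1.77 in MF, 5.37-fold higher in PH than in MF and 3.14-fold lower in iHep than in PH. Its paralogue Wnt5a, a non-canonical ligand of fibroblasts and other stromal cells, was instead highest in MF, at -3.02 in iHep, -2.68 in PH and -1.12 in MF. Wnt5a was 3.71-fold lower in iHep than in MF and 2.95-fold lower in PH than in MF. Wnt9a and Wnt11 were likewise highest in MF. Wnt9a, a ligand of joint formation, was at -3.43 in iHep, -2.52 in PH and -0.98 in MF, 5.45-fold lower in iHep than in MF. Wnt11, a ligand of cell movement in the embryo, was at -6.33 in iHep, -4.60 in PH and -3.66 in MF, 6.34-fold lower in iHep than in MF. By the probes used, Wnt4 and Wnt16 stayed within 4-fold on all arrays, with Wnt4 between -3.56 and -1.57 and Wnt16 between -4.55 and -3.27, both lowest in iHep.

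Wnt1, a ligand of midbrain development, gave readings that depended on the probe. The probe used was at -2.11 in iHep, 1.20 in PH and -2.44 in MF, 12.5-fold higher in PH than in MF. The second probe was at -7.18 in iHep, -7.50 in PH, not above background, and -2.92 in MF, which turned PH over MF to -4.58 and iHep over PH to 0.32. No direction for Wnt1 holds for both probes in these comparisons. The second probe of Wnt16 likewise left only MF above background, at -8.93 in iHep, -8.83 in PH and -1.95 in MF.

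Wnt10b and Wnt1 lie next to each other on chromosome 15, on opposite strands. Their promoter windows are shown because the neighbours did not share a pattern: Wnt10b was highest in iHep, and Wnt1, by the probe used, in PH. Each window runs from 250 bases before to 50 bases after the start in RefSeq on GRCm38.p6, read 5′ to 3′ on the gene's strand: Wnt10b at chr15:98778101-98778400 on the minus strand, Wnt1 at chr15:98789607-98789906 on the plus strand. Capitals mark CTTTG on either strand, the core of the TCF and LEF motif.
Wnt10b: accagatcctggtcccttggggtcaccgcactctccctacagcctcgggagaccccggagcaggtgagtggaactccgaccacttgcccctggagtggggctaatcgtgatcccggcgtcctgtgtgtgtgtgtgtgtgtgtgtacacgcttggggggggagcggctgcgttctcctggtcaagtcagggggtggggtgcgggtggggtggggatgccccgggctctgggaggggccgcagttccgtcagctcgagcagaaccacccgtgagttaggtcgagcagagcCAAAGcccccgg
Wnt1: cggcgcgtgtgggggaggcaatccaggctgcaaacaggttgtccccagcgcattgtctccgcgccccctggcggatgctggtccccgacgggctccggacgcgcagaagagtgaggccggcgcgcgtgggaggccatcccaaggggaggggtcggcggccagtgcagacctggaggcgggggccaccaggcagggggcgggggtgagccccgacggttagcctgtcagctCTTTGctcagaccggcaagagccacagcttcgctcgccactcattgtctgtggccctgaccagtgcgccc
Each window held 1 match, reading as CAAAG in Wnt10b and CTTTG in Wnt1. The same letters occurred in 53.9% of all 32851 windows in the table and in 18 of the 42 windows (42.9%) of the 34 WNT genes that have one. The longer CTTTGA was in neither window, in 16.0% of all windows and in 5 of the 42 (11.9%). A match describes the sequence and is not a binding site shown by these data.

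The receptors and coreceptors were lower in iHep than in MF for 10 of 12 genes, and the count of 10 was the same under normexp and quantile normalization and 9 with the second probe of genes that have several. The lower share of all genes was 23.5%, and in those settings 41.2%, 21.0% and 26.0%. Fzd1, a Frizzled receptor of the canonical branch, was at -7.04 in iHep, 0.67 in PH and 2.92 in MF, 997-fold lower in iHep than in MF and 209-fold lower than in PH. Fzd2, its close relative, was at -1.47 in iHep, -3.04 in PH and 3.00 in MF, 22.2-fold lower in iHep than in MF and 66.1-fold lower in PH than in MF. The second Fzd2 probe had the same order against MF (-6.95 in iHep, -6.94 in PH, not above background, and -1.74 in MF), but it left no difference between iHep and PH (-0.0063), where the probe used was 2.98-fold higher in iHep. Fzd7, the third member of that subgroup, was at -3.26 in iHep, -2.26 in PH and 0.55 in MF, 14.0-fold lower in iHep than in MF and 7.01-fold lower in PH than in MF. These 3 receptors shared the order of MF above both other arrays, as did the fibroblast markers, of which 14 of 14 were lower in iHep than in MF and 12 of 14 lower in PH than in MF. The part of the fibroblast share in these readings was not tested.

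Fzd8, a receptor of forebrain and kidney, was at -6.81 in iHep, -2.93 in PH and -2.19 in MF, 24.6-fold lower in iHep than in MF and 14.7-fold lower than in PH. Fzd3, Fzd9 and Fzd10 were not above background in iHep. Fzd3, a receptor of axon guidance and planar polarity, was at -9.59 in iHep, -5.22 in PH and -3.36 in MF, at least 15.6-fold lower in iHep than in MF. Fzd10 was at -9.60 in iHep, -6.60 in PH and -4.61 in MF, and Fzd9 at -8.28 in iHep, -4.45 in PH and -4.96 in MF, at least 6.55-fold and 5.14-fold lower in iHep than in MF. Fzd5 and Fzd6 were lower in iHep by smaller amounts. Fzd5, a receptor of gut and endothelium, was at -5.72 in iHep, -3.95 in PH and -4.32 in MF, and Fzd6, a planar polarity receptor of hair follicles, was at -5.29 in iHep, -3.70 in PH and -3.51 in MF, 2.63-fold and 3.43-fold lower in iHep than in MF. Fzd4, a receptor of vascular growth, was at -0.31 in iHep, 1.11 in PH and -0.39 in MF, within 1.06-fold between iHep and MF and 2.82-fold higher in PH than in MF.

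The coreceptors went opposite ways. Lrp5 was at 0.56 in iHep, 0.86 in PH and -0.89 in MF, 2.74-fold higher in iHep than in MF and 3.37-fold higher in PH than in MF. Lrp6 was at -0.15 in iHep, 1.01 in PH and 1.87 in MF, 4.07-fold lower in iHep than in MF and 2.24-fold lower than in PH. Its second probe gave log2 differences of -0.71 in iHep over MF and -0.05 in iHep over PH, both under 2-fold. Lrp5 was thus the 1 receptor gene that was at least 2-fold higher in iHep than in MF.

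Of the R-spondins, which amplify WNT signalling, none was at least 2-fold higher in iHep than in PH or MF. Rspo1 was at -8.33 in iHep, below background, 1.66 in PH and 0.04 in MF, at least 165-fold lower in iHep than in MF and at least 506-fold lower than in PH. Rspo2 was at -9.56 in iHep and -8.85 in PH, both below background, and -2.64 in MF, at least 25.6-fold lower in iHep and at least 19.0-fold lower in PH than in MF. Rspo3, the R-spondin of central vein endothelium, was at -2.60 in iHep, -0.02 in PH and -2.002 in MF, 5.95-fold lower in iHep than in PH and 3.94-fold higher in PH than in MF. Rspo4, known from nail growth, was at -6.97 in iHep, -4.52 in PH and -7.88 in MF, the last not above background, and its PH over MF difference turned to -0.49 under normexp. Each R-spondin above background in PH was therefore lower in iHep.

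Of the R-spondin receptors, Lgr5, a marker of intestinal stem cells and of pericentral hepatocytes, was above background in PH alone. It was at -9.64 in iHep, -0.93 in PH and -6.41 in MF, at least 41.4-fold higher in PH than in MF and at least 83.9-fold lower in iHep than in PH. Lgr4, the widely expressed receptor, was at -3.81 in iHep, -1.67 in PH and -3.37 in MF, 4.42-fold lower in iHep than in PH and 1.36-fold lower than in MF. Lgr6, a receptor of skin stem cells, was at -5.62 in iHep, -5.06 in PH and -4.79 in MF, within 2-fold in all comparisons. After normexp Lgr6 was lower than in MF by more than that, at -1.75 in iHep over MF and -1.20 in PH over MF, as it was in PH over MF after quantile normalization (-1.28).

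The ubiquitin ligases that R-spondins hold back differed from each other. Rnf43 was at 1.31 in iHep, 0.69 in PH and -4.20 in MF, 45.5-fold higher in iHep than in MF, 29.7-fold higher in PH than in MF and within 1.53-fold between iHep and PH. Znrf3 was at -4.62 in iHep, -5.24 in PH and -5.16 in MF, within 1.53-fold in every comparison. That held neither after normexp, with Znrf3 at -1.06 in iHep over MF and -1.11 in PH over MF, nor after quantile normalization, at -1.13 in PH over MF and 1.75 in iHep over PH. Rnf43 was thus well over 2-fold higher in both iHep and PH than in MF, and Znrf3 was not.

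Axin2, the scaffold protein most used as a readout of canonical signalling, was at -9.60 in iHep, -0.30 in PH and -4.09 in MF. Its iHep reading was below background, at least 130-fold under PH and at least 9.38-fold under MF, and it was 13.9-fold higher in PH than in MF. The second Axin2 probe was also highest in PH, at -4.08. It was not above background in iHep (-9.49) or in MF (-6.69), so it gives no order between these arrays. By the probes used, Axin2 and Rnf43, both feedback genes of the pathway, differed in opposite directions in iHep over MF. In PH over MF they differed in the same direction.

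The promoter windows of both genes are shown for this contrast. Axin2 is at chr11:108920099-108920398 and Rnf43, at the first of its 2 listed starts, at chr11:87662837-87663136, both on the plus strand of GRCm38.p6 in RefSeq.
Axin2: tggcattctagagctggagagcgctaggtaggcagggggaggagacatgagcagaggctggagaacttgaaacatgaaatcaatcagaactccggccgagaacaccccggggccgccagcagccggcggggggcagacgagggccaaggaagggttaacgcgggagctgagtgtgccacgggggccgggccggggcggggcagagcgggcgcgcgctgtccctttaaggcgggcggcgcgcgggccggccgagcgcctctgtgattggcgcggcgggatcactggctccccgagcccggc
Rnf43: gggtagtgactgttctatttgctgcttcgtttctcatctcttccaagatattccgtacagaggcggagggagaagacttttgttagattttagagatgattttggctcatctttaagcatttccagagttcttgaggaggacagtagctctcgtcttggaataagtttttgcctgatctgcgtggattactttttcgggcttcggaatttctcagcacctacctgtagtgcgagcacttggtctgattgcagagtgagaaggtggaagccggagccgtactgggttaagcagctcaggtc
Neither window holds CTTTG on either strand, so no letters are in capitals, which says only that these letters are not in these windows. The Axin2 window had 31 CG dinucleotides and the Rnf43 window 10, against a median of 7 over all windows.

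Of the factors that act with beta-catenin, Lef1 and Tcf7 were highest in PH. Lef1, a lymphoid enhancer factor, was at -7.51 in iHep, -5.02 in PH and -6.65 in MF, above background in PH alone, and its PH over MF difference turned to -0.94 under normexp. Tcf7, which like Lef1 is also a T cell factor, was at -5.37 in iHep, -3.13 in PH and -7.48 in MF, at least 9.02-fold higher in PH than in MF and 4.71-fold lower in iHep than in PH. After normexp its PH over MF difference was 0.53, under 2-fold. In iHep over MF Tcf7 was at least 1.91-fold higher, but the second probe gave -0.43 and normexp -1.24. T and B lymphocyte markers were also mostly higher in PH. Of the 14, 13 were at least 2-fold higher in PH than in MF and 1, Il7r, was lower. Above background were 8 of 14 in iHep, 14 in PH and 8 in MF. Their summed level was 2.24 in iHep, 6.05 in PH and 1.40 in MF. Cd3e was at -0.65 in iHep, 3.36 in PH and -0.99 in MF. The part of lymphocyte RNA in the Lef1 and Tcf7 readings was not tested.

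The secreted inhibitors showed the widest differences from MF. Dkk3, a secreted protein of stromal cells, was at -6.59 in iHep, -0.50 in PH and 4.43 in MF, 2075-fold lower in iHep and 30.5-fold lower in PH than in MF. Sfrp1, a decoy that binds WNT proteins, was at -9.64 in iHep, below background, -5.60 in PH and 2.40 in MF, at least 847-fold lower in iHep and 257-fold lower in PH than in MF. Dkk2, an antagonist that binds LRP coreceptors, was at -9.51 in iHep and -7.20 in PH, both below background, and 2.13 in MF, at least 702-fold lower in iHep and at least 520-fold lower in PH than in MF. These 3 genes were above the 75th percentile in MF and below it on both other arrays. Sfrp4, a decoy of connective tissue, was at -6.55 in iHep, -4.82 in PH and -1.40 in MF, 35.4-fold lower in iHep and 10.7-fold lower in PH than in MF. The fibroblast markers had a summed level of 5.52 in iHep, 5.62 in PH and 9.44 in MF, and 10 of the 14 were at least 2-fold lower and 2 higher in iHep over PH. Their part in these readings was not tested.

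Sfrp2 was instead highest in PH, at -6.67 in iHep, -2.28 in PH and -3.82 in MF, 7.22-fold lower in iHep than in MF and 21.0-fold lower than in PH. Notum, an enzyme that removes the lipid from WNT proteins and a pericentral target gene of the liver, was at 1.18 in iHep, 4.17 in PH and -0.65 in MF. It was 3.58-fold higher in iHep than in MF, 28.4-fold higher in PH than in MF and 7.95-fold lower in iHep than in PH, and it was the 1 secreted inhibitor at least 2-fold higher in iHep than in MF. Notum lay in iHep between the other arrays, while Rnf43 in iHep was within 2-fold of PH.

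Dkk1, Dkk4 and Wif1 were above background in PH alone and close to its limit. Dkk1, an LRP antagonist and target gene, was at -7.54 in iHep, -5.58 in PH and -7.74 in MF. Dkk4, of the same family, was at -9.64 in iHep, -6.21 in PH and -8.51 in MF, and Wif1, a WNT-binding inhibitor, was at -7.66 in iHep, -5.52 in PH and -8.53 in MF. Their PH over MF bounds were at least 1.66-fold, 1.06-fold and 1.72-fold, and all 3 turned below 0 under normexp. Sfrp5 was at -6.16 in iHep, -5.52 in PH and -6.26 in MF, within 2-fold in all comparisons, but at -1.78 in iHep over MF and -1.10 in PH over MF after normexp.

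**Figure D4:**
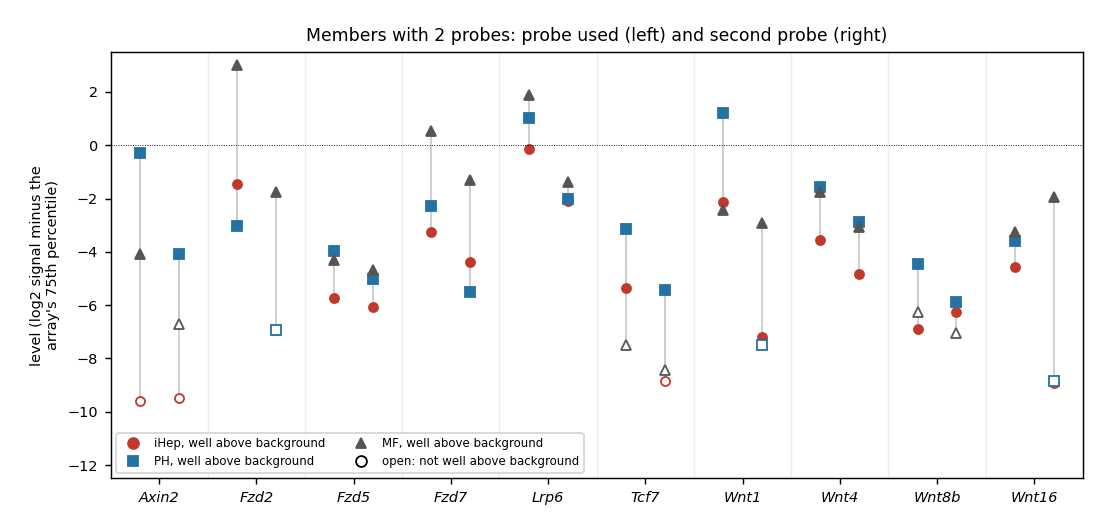
Levels of the 10 WNT genes read by a pair of probes, with the probe used on the left of each gene and the second on the right; the y axis is the log2 signal minus the array's 75th percentile and open symbols were not well above background. Both Axin2 probes are highest in PH, whereas Wnt1 is highest in PH by the probe used (1.20) and in MF by the second (-2.92).

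All 34 listed genes of WNT secretion and beta-catenin transduction were above background in iHep, PH and MF, with 3 higher and 6 lower in iHep over MF, 5 and 12 in PH over MF, and 9 and 6 in iHep over PH. Over all genes, 25.3% were higher and 23.5% lower in iHep over MF, 35.6% and 25.6% in PH over MF, and 24.1% and 37.0% in iHep over PH. Porcn, which attaches the lipid to WNT proteins, was at 4.74 in iHep, 5.36 in PH and 5.45 in MF. Wls, which carries WNT proteins to the surface, was at 3.21 in iHep, 0.47 in PH and 4.22 in MF, 6.70-fold higher in iHep than in PH and 13.5-fold lower in PH than in MF. Ctnnb1, the gene of beta-catenin, was at 3.90 in iHep, 3.76 in PH and 4.79 in MF. Their median log2 difference was -0.23 in iHep over MF, -0.68 in PH over MF and 0.57 in iHep over PH.

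Of the other TCF factors, Tcf7l1 was at 1.58 in iHep, 0.65 in PH and 0.70 in MF, and Tcf7l2, a TCF factor of liver and gut, at -0.56 in iHep, 0.78 in PH and -1.34 in MF, 4.33-fold higher in PH than in MF. The corepressor Tle2 was at 0.92 in iHep, 3.99 in PH and 0.46 in MF, 11.6-fold higher in PH than in MF. The Dishevelled genes, which relay the signal from Frizzled, went opposite ways in iHep. Dvl2 was at 0.14 in iHep, -1.99 in PH and -1.41 in MF, 2.94-fold higher in iHep than in MF, and Dvl3 at -3.57 in iHep, -0.93 in PH and -1.66 in MF, 3.74-fold lower in iHep than in MF. Dact3, a modulator of Dishevelled, was at 0.12 in iHep, 3.52 in PH and 2.18 in MF, 4.18-fold lower in iHep than in MF and 10.6-fold lower than in PH.

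Of 20 listed WNT target genes, 12 were above background in iHep, 18 in PH and 13 in MF, and 8 of the 20 are among the 53 WNT genes. In iHep over MF 5 were higher and 4 lower of 14 compared, in PH over MF 10 and 5 of 18, and in iHep over PH 5 and 10 of 18. For the 12 that are not among the WNT genes these counts were 2 and 3 of 9, 3 and 5 of 10, and 5 and 4 of 10. Higher genes thus outnumbered lower ones in PH over MF, and lower ones the higher in iHep over PH, only with the 8 included. Of all genes compared, 25.3% were higher and 23.5% lower in iHep over MF. These shares were 35.6% and 25.6% in PH over MF, and 24.1% and 37.0% in iHep over PH. Nkd1, a feedback inhibitor of Dishevelled, was at -8.35 in iHep, below background, 0.87 in PH and -0.02 in MF, at least 158-fold lower in iHep than in MF. Sp5, a transcription factor and direct target, was at -9.45 in iHep, -3.39 in PH and -8.38 in MF, above background in PH alone. Nkd1, Sp5, Lgr5 and Axin2 thus had no reading above background in iHep and one in PH.

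Of the targets with growth and Notch roles, Myc and Jag1 passed 2-fold in iHep over MF and Ccnd1 did not. Myc, a growth regulator, was at 3.505 in iHep, -0.47 in PH and 1.15 in MF, 5.11-fold higher in iHep than in MF and 15.7-fold higher than in PH. Ccnd1, the gene of cyclin D1, was at 2.67 in iHep, 1.17 in PH and 2.20 in MF, 1.39-fold higher in iHep than in MF. Jag1, a Notch ligand, was at 1.62 in iHep, -0.95 in PH and 0.18 in MF, 2.71-fold higher in iHep than in MF. Many inputs besides WNT act on these genes.

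Of 14 pericentral liver genes, 11 were higher and none lower in PH over MF, and 11 were lower and none higher in iHep over PH. Over all genes 35.6% were higher in PH over MF and 37.0% lower in iHep over PH. The same directions were read in both comparisons for 12 of 12 hepatocyte markers and 10 of 10 pancreatic acinar markers. They were thus not particular to the pericentral genes. Of the 14, 4 are among the WNT genes and 6 also in the target list, and of the 10 that are not WNT genes 8 were higher in PH over MF and 9 lower in iHep over PH. In iHep over MF, 3 were higher and 2 lower of 11 compared, beside 25.3% and 23.5% of all genes. Glul was at -1.58 in iHep, 3.33 in PH and -1.12 in MF, 21.8-fold higher in PH than in MF and 1.38-fold lower in iHep than in MF. Cyp2e1, a pericentral detoxification enzyme, was at -4.03 in iHep, 5.93 in PH and -5.02 in MF, 1.98-fold higher in iHep than in MF. Cyp1a2, of the same zone, was at -9.56 in iHep, 3.44 in PH and -6.68 in MF, above background in PH alone. Lect2, a secreted liver protein, was at -3.09 in iHep, 4.60 in PH and -8.36 in MF, below background there, at least 9.25-fold higher in iHep than in MF. The ammonium transporter Rhbg was at -5.06 in iHep, -1.78 in PH and -7.40 in MF, also below background, at least 2.38-fold higher in iHep. With Rnf43, these were the 3 genes higher in iHep than in MF, and Nkd1 and Axin2 were the 2 lower.

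**Figure D5:**
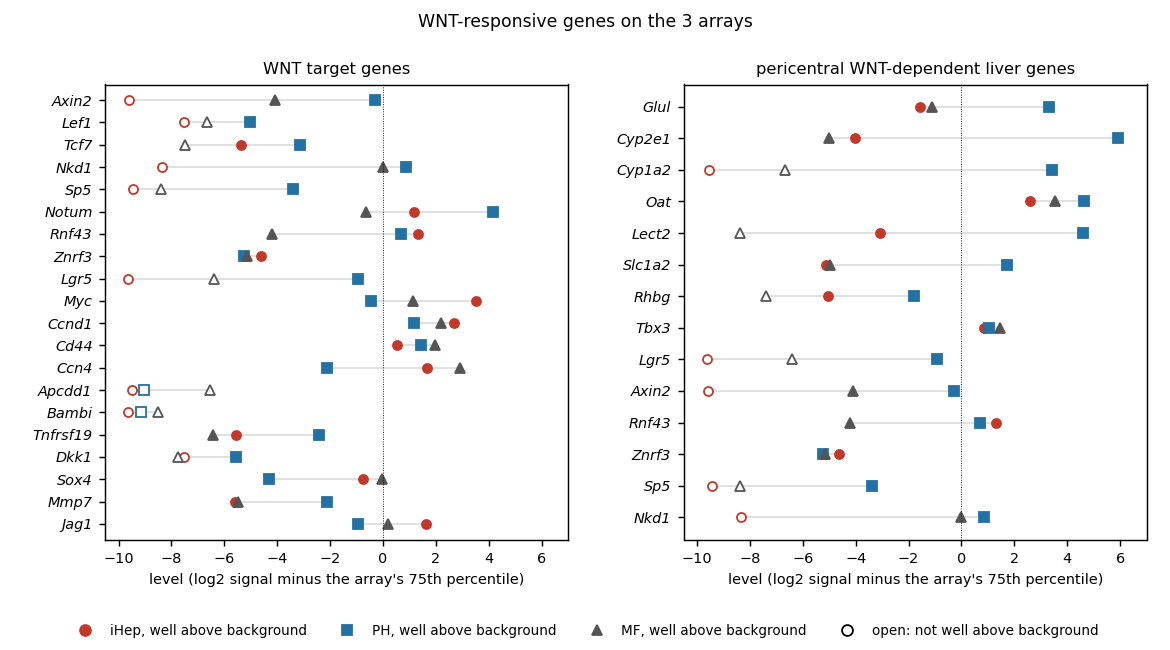
Levels of 20 WNT target genes (left) and 14 pericentral liver genes (right) in iHep, PH and MF; the x axis is the log2 signal minus the array's 75th percentile and open symbols were not well above background. Axin2, Lgr5, Sp5 and Nkd1 are open in iHep, while Rnf43 is at 1.31 in iHep, 0.69 in PH and -4.20 in MF.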

How the data were processed

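Total RNA of iHep, PH and MF was read on 1 one-colour (Cy3) Agilent array each, with 5 samples pooled per group as the series' design text states. Titles gave the groups. Spot intensity (linear scale) comes from the deposited scanner output, written by Agilent Feature Extraction 11.0.1.1 per the file headers, although 9.1 is the version in the submitters' processing notes. The processed intensity had background subtracted and a spatial trend removed within each array, per the file headers, which name mm9 as the build of the design. A log2 table was also deposited, in which the authors give 26049 probes, with medians of 7.01 in iHep, 7.07 in PH and 7.02 in MF and r of 0.9982, 0.9943 and 0.9974 with the scanner values. Its scale, centring and normalization are unstated, and it served as an alternative.

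Values were log2 of the processed intensity minus the array's 75th percentile over non-control spots. Outlier spots were left out (230 in iHep, 383 in PH and 190 in MF, of 43020 each), and no spot was saturated. Spots of a probe were averaged. Probes were named by unversioned accession in the RefSeq table of GRCm38.p6, used for names and neighbours only: 27234 of 39429 probes (69.1%) had 1 symbol and 12195 had none here. For genes with several probes, including 10 WNT genes, the probe with the highest mean over the arrays was used, and a gene was above background if any of its probes was. Counts use differences as read, for genes above background on at least 1 of 2 arrays. The counting procedure was checked on simulated data. With 1 array per group, their number limits the precision.

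The WNT genes, the other gene lists and the markers were chosen with earlier results of these data known, and no list supports a direction independently. All 53 WNT genes are given. Values on all arrays are given in sentences for the 40 that were above background somewhere and at least 4-fold apart between arrays and for Axin2, Lef1, Tcf7, Lgr5, Rnf43, Znrf3, Lrp5 and Lrp6. From other lists, genes were taken among the 6 widest differences in each direction per comparison, plus Porcn, Wls, Ctnnb1, Tcf7l1, Tcf7l2, Glul, Myc and Ccnd1. Single markers named beside a result (Alb, Hnf4a, Cdh5 and Cd3e) and Ptk7, Prickle1, Prickle2 and Daam2 were picked with their values in view. Alternatives were normexp background correction (limma 3.58.1, R 4.3.3, offset 50, on median signals), quantile normalization, scaling to commonly detected probes, the authors' deposited values, other filters, other probe rules, bounds and a 4-fold threshold. Scan as a block could not be fitted with 1 array per group. Promoter sequences are from RefSeq on GRCm38.p6, and 34 WNT genes had a window. Calculations used Python 3.11.15, numpy 2.4.6 and pandas 2.3.3.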

Additional observations from a re-analysis of the deposited data

How the results depend on the processing

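No paired analysis was possible because each group has 1 array, and leaving out a replicate or blocking by scan was not possible for the same reason. The number of WNT genes at least 2-fold apart moved by over 1.5 times in some settings. With normexp, iHep over MF had 4 higher genes in place of 10, and PH over MF had 11 higher in place of 24 and 24 lower in place of 12. With the authors' values, which hold 35 of the 53 WNT genes, there were 5 higher in iHep over MF, 10 higher in PH over MF and 17 lower in iHep over PH in place of 35. Quantile normalization gave 21 lower in PH over MF. With only genes above background on all arrays, which compares 29 WNT genes, there were 15 lower in iHep over MF in place of 23, 9 higher and 7 lower in PH over MF, and 16 lower in iHep over PH. At 4-fold, 5 were higher in iHep over MF and 3 in iHep over PH in place of 5. The median of the WNT genes in PH over MF, 0.51, turned to -0.94 with normexp, -0.40 with quantile normalization, -1.04 with the authors' values and -0.27 with genes above background on all arrays. Some settings could not change a single-gene difference. The filters change only which genes are compared, and the probe rules leave genes with 1 probe as they were. With normexp, 19 of 43 differences stayed within the spread used in iHep over MF, 30 of 51 in PH over MF and 31 of 49 in iHep over PH. Of all 1181 single-gene differences recomputed, which include those that could not change, 1012 stayed within that spread, 151 moved and 18 turned. With normexp these were, in PH over MF, Dkk1 (-1.09), Dkk4 (-1.05), Lef1 (-0.94), Rspo4 (-0.49), Wif1 (-0.81), Wnt2b (-0.99), Wnt3a (-1.12), Wnt8a (-1.05) and Wnt8b (-0.64), and in iHep over MF, Tcf7 (-1.24), Wnt6 (-1.11), Wnt7a (-1.06) and Wnt9b (-1.60). The second probe turned Wnt1 (-4.58 in PH over MF, 0.32 in iHep over PH), Fzd2 (-0.0063 in iHep over PH) and Tcf7 (-0.43 in iHep over MF), and the mean of the probes turned Wnt1 (-0.47 in PH over MF). A change of side of the 2-fold threshold occurred for 34 single-gene differences with normexp, 19 with quantile normalization, 15 with the authors' values and 10 with the second probe. The cause was not tested. The median of all genes was 0.09 in iHep over MF, 0.12 in PH over MF and -0.30 in iHep over PH, and in that order it moved to -0.64, -0.51 and -0.42 with normexp, to 0.18, -0.19 and 0.21 with quantile normalization and to 0.17, -0.19 and 0.21 with the authors' values. Of the genes at least 2-fold apart, 51.8%, 58.2% and 39.5% were higher, against 22.2%, 35.0% and 36.9% with normexp, 55.5%, 48.1% and 53.3% with quantile normalization and 56.7%, 47.7% and 54.1% with the authors' values. The lowest level called above background was -7.32 in iHep, -6.89 in PH and -6.30 in MF.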

Other observations

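Genes outside the WNT symbol rule that modulate WNT proteins or carry their non-canonical branch were mostly lower in iHep than in MF: of 27 listed, 23 could be compared, 15 were at least 2-fold lower and 2 higher, beside 23.5% and 25.3% of all genes. Ror2, a receptor of WNT5A, was at -9.64 in iHep, below background, -4.30 in PH and 1.85 in MF, at least 578-fold lower in iHep and 71.1-fold lower in PH than in MF. Gpc4, a cell surface glypican, was at -8.90 in iHep, below background, 1.19 in PH and 2.17 in MF, at least 719-fold lower in iHep than in MF. Trabd2b, a protease that inactivates WNT proteins, was at -9.56 in iHep, below background, -3.98 in PH and 1.60 in MF, at least 486-fold lower in iHep and 47.7-fold lower in PH than in MF. Cthrc1, a secreted cofactor of the non-canonical branch, was at -9.56 in iHep, below background, -6.31 in PH and 0.70 in MF, at least 261-fold lower in iHep and 130-fold lower in PH than in MF. Fibroblast markers had a median level of -4.52 in iHep, 0.20 in PH and 5.29 in MF, and their part was not tested.

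Genes of planar cell polarity differed among themselves. Ptk7 was 39.8-fold, Prickle1 4.76-fold and Prickle2 at least 2.55-fold lower in iHep than in MF, and Daam2, a formin of the non-canonical branch, 63.1-fold lower. Celsr1, a polarity cadherin of epithelia, was at -0.99 in iHep, 0.53 in PH and -5.04 in MF, 16.5-fold higher in iHep and 47.5-fold higher in PH than in MF. Celsr3, its neuronal relative, was at -0.32 in iHep, -3.33 in PH and -2.44 in MF, 4.35-fold higher in iHep than in MF and 8.07-fold higher than in PH. Celsr1 and Celsr3 were the 2 genes of this list that were higher in iHep than in MF. Vangl2, a membrane protein of the same system, was at 0.28 in iHep, 4.30 in PH and -0.33 in MF, 24.8-fold higher in PH than in MF and 16.1-fold lower in iHep than in PH. Gpc3, a glypican of fetal liver, was at -4.95 in iHep, 1.89 in PH and -1.23 in MF, 115-fold lower in iHep than in PH, and Gpc6 was at -3.83 in iHep, -6.57 in PH and 0.54 in MF, 20.7-fold lower in iHep than in MF.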
